A study of Homo sapiens with 6 samples.

Results

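The genes described here are the mitotic kinases, kinesins and cytokinesis genes, a set of 49 genes that act from entry into mitosis to the separation of the daughter cells. They were chosen by name, with earlier results of these data known. Each was measured by 1 probe set annotated to that gene alone, the one with the highest mean over the 6 arrays. A probe set marked _x_at (prone to cross-hybridisation) was used only where a gene had no other. All 49 genes had such a probe set, out of 19775 genes with one on the array. A gene was tested if its mean over the 6 arrays was above 4 on the log2 scale, which 48 of the 49 passed, among 10862 tested genes in all. The 1 gene that did not pass was INCENP.

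The cells were Capan-1, an established human pancreatic carcinoma line. The first group received small interfering RNA (siRNA) against GNE and is called siGNE below (3 arrays, numbered 1, 2 and 3 in the titles). The second group, called control, received what the labels name allStar (3 arrays, numbered 1, 2 and 3). Both groups were transfected 2 times, 48 h apart, with 0.4 µg of siRNA per well, and RNA was taken 72 h after the later transfection. All cells were of 1 line, and the labels do not give the number of different siRNAs against GNE. Whether replicate arrays stand for separate cultures is not stated, so that each p-value reflects the scatter of these 6 arrays alone, which may be technical. Equally numbered siGNE and control arrays form a pair below.

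Entry into mitosis is driven by cyclin-dependent kinase 1 bound to cyclin B, and Aurora and Polo-like kinases then guide centrosome maturation, spindle assembly and chromosome attachment. Kinesins are motor proteins that walk along or shorten microtubules, and a subset of them builds the spindle and the midzone on which the cell later divides. The anaphase-promoting complex (APC/C), a ubiquitin ligase, ends mitosis by marking cyclin B and securin for destruction. Many genes of this phase are transcribed late in the cell cycle, under the MuvB complex with B-MYB (MYBL2) and FOXM1, which act through a promoter element called the cell cycle genes homology region (CHR), while CCAAT boxes bound by the factor NF-Y often lie nearby.

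GNE encodes the enzyme that starts the synthesis of sialic acid, and its only probe set had log2 values of 8.39, 9.86 and 9.57 on siGNE arrays 1, 2 and 3, against 11.12, 11.47 and 10.86 on control arrays 1, 2 and 3. The groups did not overlap, and siGNE cells stood at 15.0%, 32.8% and 40.9% of control in pairs 1, 2 and 3. The limma adjusted p was 0.0348 with the pairs as a block and 0.131 without, and the exact two-sided permutation test over the 3 against 3 arrays gave p = 0.1, the smallest it can give. All 8 epithelial markers looked up were above 4 on the log2 scale, while 6 of 7 fibroblast markers were not. Of 5 genes with a probe set in a leukocyte list, which also holds the haemoglobin gene HBB, 4 were not above 4. The exceptions were COL1A1, a collagen chain, at 8.74 ± 0.53 in siGNE and 8.03 ± 0.69 in control cells, and LYZ, lysozyme, at 11.10 ± 0.39 in siGNE and 11.07 ± 0.79 in control cells (SD, n = 3 arrays each). The log2 of the summed level ran from 8.36 to 9.32 on siGNE and from 7.76 to 8.92 on control arrays for the fibroblast markers. For the leukocyte list, HBB included, it ran from 10.69 to 11.45 on siGNE and from 10.19 to 11.60 on control arrays. COL1A1 rose by 0.71 (limma adjusted p 0.0441 with the block, 0.512 without).

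After GNE siRNA the mitosis and cytokinesis genes were lower almost without exception. Of the 48 tested genes, 47 were lower in siGNE than in control cells, against 52.8% of all tested genes. In all 3 pairs 47 were lower, against 30.8% of all tested genes. The exception was FZR1, an activator of the APC/C. Both shares also stand behind the counts of lower genes in the lists below. The median difference, siGNE minus control on the log2 scale, was -0.64 over the 48 genes, or 1.56-fold lower, against -0.02 over all 10862 tested genes. All siGNE values lay below all control values for 44 of the 48 genes, against 13.8% of all tested genes. Since the genes were chosen with earlier results of these data known, these counts describe the set and are not independent evidence.

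With the pairs as a block, 18 of the 48 genes fell and 0 rose at a limma adjusted p under 0.05, where 5.74% of all tested genes fell and 4.12% rose. Counted over all 22085 tested probe sets, 5.35% fell and 4.13% rose. At an unadjusted p under 0.05 with the block, 46 of the 48 were lower and 0 higher. At that threshold 6984 of all 22085 tested probe sets passed, in either direction. This background also stands behind the counts at an unadjusted p with the block in the lists below. Without the block, limma called 0 of the 48 genes, and 0% of all tested genes were called lower. In that fit 45 of the 48 were lower at an unadjusted p under 0.05, against 10.3% of all tested genes, and the smallest adjusted p among them was 0.0974. Every call given below as fell or rose is from the fit with the block and is lost without it. The changes were of moderate size, with 3 genes (KIF15, KIF18A and PLK1) lower by at least 2-fold. In RNA from whole cultures, fewer cells in the late cell cycle and less of each transcript per cell cannot be told apart.

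**Figure D1:**
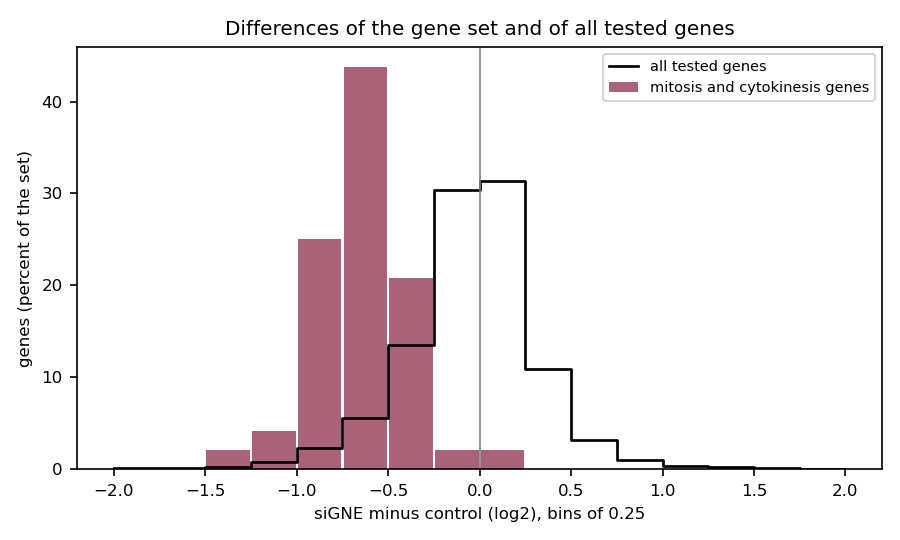
Distribution of the log2 difference siGNE minus control in bins of 0.25, as percent of the 48 tested mitosis and cytokinesis genes (bars) and of all 10862 tested genes (line). The bin from -0.75 to -0.5 holds 43.8% of the gene set and 5.52% of all tested genes.

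The size of the decrease differed between pairs. The median over the 48 genes was -0.96 in pair 1, -0.44 in pair 2 and -0.44 in pair 3, against -0.01, -0.0023 and -0.02 over all tested genes. Pair 1 gave the lowest of the 3 differences for 46 of the 48 genes, against 39.8% of all tested genes, and KIF22 and FZR1 were the exceptions. The siGNE array of number 1 had the lowest value of all 6 arrays for 41 of the 48 genes. The control array of number 1 was the highest of the controls for 26 of them. GNE itself was at its lowest share of control in the same pair, at 15.0%, and with 3 pairs a relation between the GNE level and these genes was not tested. Without pair 1 the median over the gene set was -0.47, all 48 tested genes were lower, and 0 passed in limma with the block, where 41 had an unadjusted p under 0.05. In that fit 5529 of all 22085 tested probe sets had an unadjusted p under 0.05, in either direction.

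**Figure D2:**
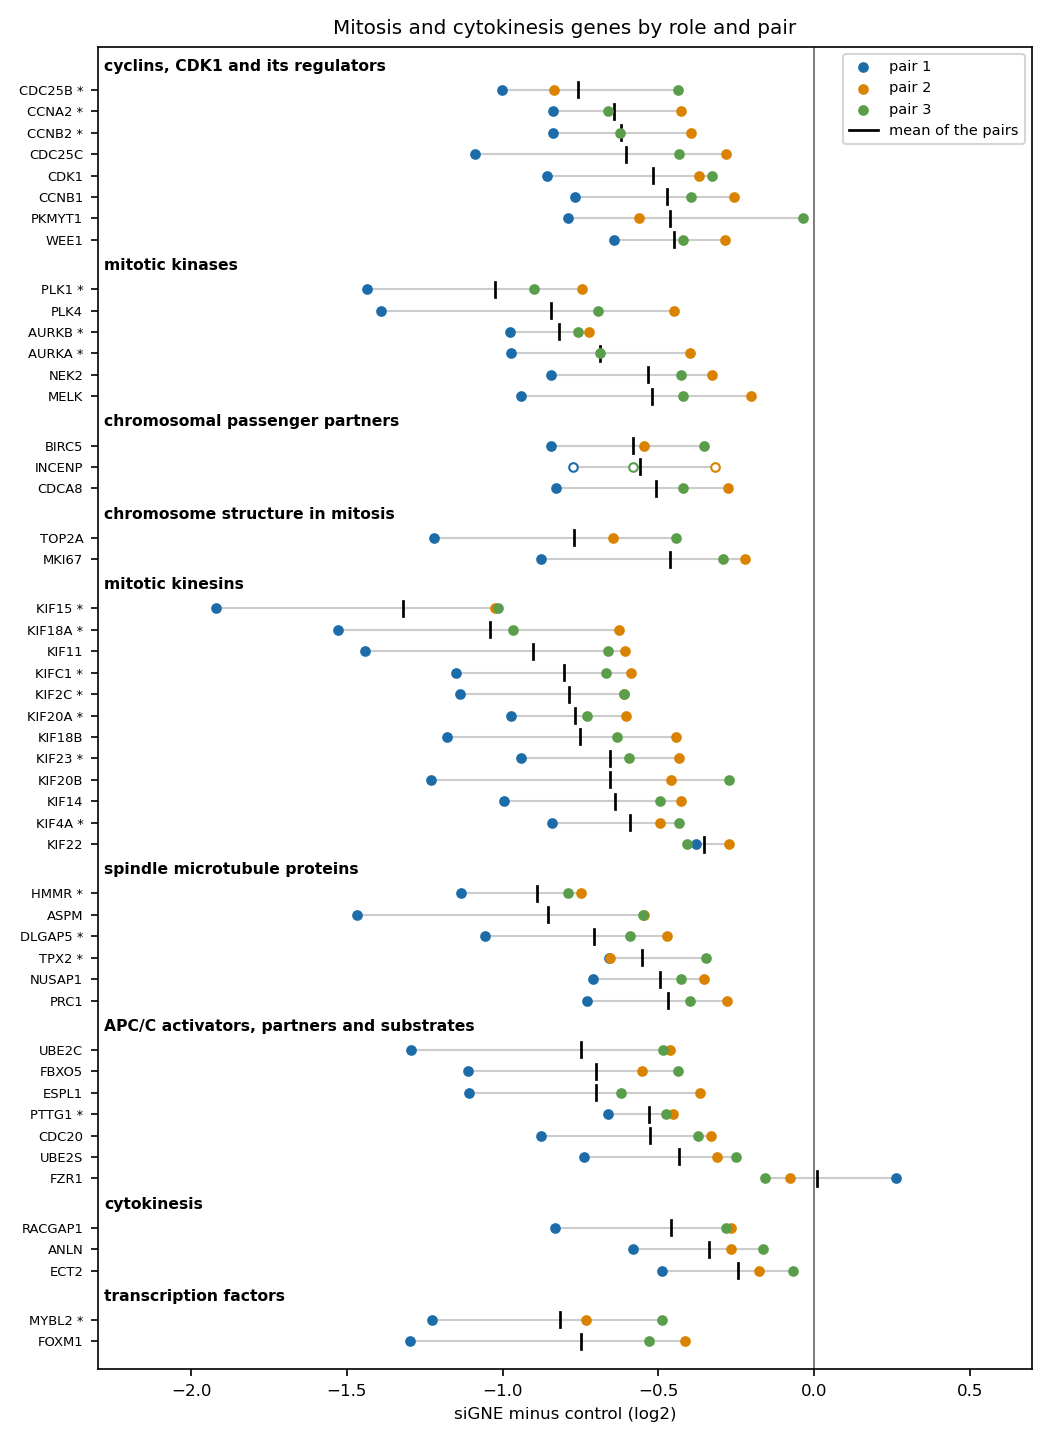
Log2 difference siGNE minus control of each mitosis and cytokinesis gene in pairs 1, 2 and 3 (points), with the mean of the pairs (black bar), grouped by role. An asterisk marks the 18 genes that fell in limma with the block, open points mark INCENP, which was not tested, and every gene but FZR1 lies left of 0 in all 3 pairs.

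Windows at the start sites of these genes were searched for the letters of the CHR and the CCAAT box. Late cell cycle genes often carry these elements, so the shares below follow from the choice of genes. They are no result of the siRNA. RefSeq promoter windows (GRCh38.p14, 250 bases before to 50 after a start site, the first window listed for each gene) matched 41 of the 49 genes by symbol. WEE1, PKMYT1, AURKA, BIRC5, TPX2, UBE2C, RACGAP1 and FOXM1 had no entry. Each window was searched on both strands for the CHR, spelled TTTGAA or TTCGAA, and for the CCAAT box, spelled CCAAT. A CHR match was found for 28 of 41 genes (68.3%), against 11.2% of 8968 tested genes with a window and 16.6% of all 27305 genes in the table. Of these, 27 held TTTGAA and 1 held TTCGAA. A CHR match within 50 bases of the start was found for 22 genes (53.7%), against 3.23% of the tested genes. The CCAAT box was found for 31 genes (75.6%), against 37.4% of tested and 35.7% of all genes, and both motifs for 24 genes (58.5%), against 4.90% of tested genes. Over any listed window of a gene, a CHR match was found for 31 of 41 genes (75.6%), against 15.6% of tested genes. Other spellings of the CHR were not searched. These shares are descriptions of the windows, with no test.

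The size of the decrease within the set was close for genes with and without a CHR match in the first listed window, a comparison given with no test. Of the set, 10 genes have several windows. Some genes with no match found in the first window have one in another, so the comparison cannot separate genes with and without a CHR. The median difference was -0.65 for the 27 tested genes with a CHR match and -0.64 for the 13 with none found in the window. Of the genes with a match 9 fell, and of those with none found 7 fell. FZR1, the gene that was not lower, has a CHR match in its window, but not within 50 bases of the start. Its match lies farther from the start than any other CHR match in the first windows of the set. No CCAAT box was found in the FZR1 window. Whether the FZR1 match acts as a CHR was not tested. The windows of the 6 genes with the smallest unadjusted p are given below, since they are the clearest falls of the set, 5′ to 3′ on the strand of the gene with matches in capitals (CHR as TTTGAA or, on the other strand, TTCAAA, and the CCAAT box as CCAAT or, on the other strand, ATTGG). In HMMR the last stretch of CCAAT letters is a pair of overlapping boxes on opposite strands, and the CHR letters after it are a pair of adjoining matches. AURKB lies at chr17:8210176-8210475, minus strand, HMMR at chr5:163460382-163460681, plus strand, KIF20A at chr5:138178862-138179161, plus strand, PLK1 at chr16:23678639-23678938, plus strand, KIF15 at chr3:44761544-44761843, plus strand, and KIFC1 at chr6:33391573-33391872, plus strand.
AURKB: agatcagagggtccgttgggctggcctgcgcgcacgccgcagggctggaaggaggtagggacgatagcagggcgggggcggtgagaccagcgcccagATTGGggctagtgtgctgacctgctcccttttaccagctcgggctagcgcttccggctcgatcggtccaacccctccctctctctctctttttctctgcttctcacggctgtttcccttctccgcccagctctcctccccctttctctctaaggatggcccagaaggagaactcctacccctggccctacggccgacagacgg
HMMR: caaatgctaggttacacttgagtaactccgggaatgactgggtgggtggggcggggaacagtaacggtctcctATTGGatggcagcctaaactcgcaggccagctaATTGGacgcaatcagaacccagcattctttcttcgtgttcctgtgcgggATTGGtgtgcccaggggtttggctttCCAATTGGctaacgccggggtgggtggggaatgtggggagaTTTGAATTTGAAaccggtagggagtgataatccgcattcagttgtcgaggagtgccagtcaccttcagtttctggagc
KIF20A: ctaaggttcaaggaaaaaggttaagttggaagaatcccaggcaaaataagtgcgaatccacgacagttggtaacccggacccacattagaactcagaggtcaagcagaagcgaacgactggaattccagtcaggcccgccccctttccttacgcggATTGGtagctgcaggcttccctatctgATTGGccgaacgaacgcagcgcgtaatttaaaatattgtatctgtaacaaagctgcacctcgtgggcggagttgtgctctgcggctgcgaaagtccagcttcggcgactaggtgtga
PLK1: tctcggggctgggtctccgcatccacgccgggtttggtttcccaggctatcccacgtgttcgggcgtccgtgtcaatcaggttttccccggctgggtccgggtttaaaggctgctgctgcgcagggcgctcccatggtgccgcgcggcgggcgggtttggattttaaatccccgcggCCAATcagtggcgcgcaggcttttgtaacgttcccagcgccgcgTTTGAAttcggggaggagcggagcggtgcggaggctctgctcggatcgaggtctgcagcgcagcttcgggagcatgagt
KIF15: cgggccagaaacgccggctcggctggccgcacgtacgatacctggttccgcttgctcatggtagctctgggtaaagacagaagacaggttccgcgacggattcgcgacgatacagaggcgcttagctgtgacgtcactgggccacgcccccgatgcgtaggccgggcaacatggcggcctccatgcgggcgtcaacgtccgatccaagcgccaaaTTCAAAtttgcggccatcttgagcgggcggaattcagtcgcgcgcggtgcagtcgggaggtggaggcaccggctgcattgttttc
KIFC1: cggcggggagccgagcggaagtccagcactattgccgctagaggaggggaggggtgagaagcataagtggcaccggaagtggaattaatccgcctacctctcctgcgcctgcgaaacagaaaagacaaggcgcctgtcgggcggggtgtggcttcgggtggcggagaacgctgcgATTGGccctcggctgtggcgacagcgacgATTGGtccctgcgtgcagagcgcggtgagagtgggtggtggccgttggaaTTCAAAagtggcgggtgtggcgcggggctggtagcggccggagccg

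The start site lies after base 250 of each window. The CHR match begins 29 bases before it in PLK1 and 35 before it in KIF15, and the matches of HMMR begin 28 and 22 before it. In KIFC1 the match lies just after the start. No CHR match of these spellings was found in the windows of AURKB and KIF20A, which hold 1 and 2 CCAAT boxes. Each window shown is the first listed and need not cover the start site used in these cells. An absent match therefore does not show that the gene lacks a CHR.

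Cyclins and the regulators of CDK1 were lower as a group, with all 8 of 8 lower in all 3 pairs, 3 falling and a median of -0.56. Cyclin A2 (CCNA2), which drives S and G2 phase, had log2 values of 10.11, 10.43 and 10.47 on the siGNE arrays, against 10.95, 10.86 and 11.13 on the control arrays. Cyclin B2 (CCNB2), a partner of CDK1, had 11.75, 12.15 and 11.86 on the siGNE arrays, against 12.59, 12.55 and 12.48 on the control arrays. The phosphatase CDC25B, which activates CDK1 at the start of mitosis, had 9.75, 9.90 and 10.62 on the siGNE arrays, against 10.75, 10.73 and 11.06 on the control arrays. In all 3 genes the highest siGNE value lay below the lowest control value. CCNA2 fell by 0.64 (SE 0.11, limma adjusted p 0.0406), CDC25B by 0.76 (SE 0.13, limma adjusted p 0.0419) and CCNB2 by 0.62 (SE 0.12, limma adjusted p 0.0438), which left 64.1%, 59.1% and 65.1% of the control level. CDK1 itself (-0.52, SE 0.14, limma adjusted p 0.0774), its partner cyclin B1 (CCNB1, -0.47), and the phosphatase CDC25C (-0.60) did not pass. The kinases that hold CDK1 in check, WEE1 (-0.45) and PKMYT1 (-0.46), were lower too and did not pass, and in PKMYT1 the difference was -0.04 in pair 3. CDK1 had other probe sets, of which those with tested values fell by 0.71 and 0.66 (limma adjusted p 0.0409 and 0.0474), and a second probe set each of CDC25C and WEE1 fell by 0.68 (limma adjusted p 0.0491) and 0.96 (limma adjusted p 0.0303). The CDK1 probe set that fell by 0.71 and the one used for PKMYT1 are prone to cross-hybridisation.

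Among the mitotic kinases all 6 of 6 were lower in all 3 pairs, 3 fell, and the median was -0.75. Polo-like kinase 1 (PLK1), which acts from centrosome maturation to cytokinesis, had log2 values of 8.23, 8.93 and 8.87 on the siGNE arrays, against 9.66, 9.67 and 9.77 on the control arrays. Aurora B (AURKB), the kinase of the chromosomal passenger complex that corrects wrong chromosome attachments, had 9.25, 9.51 and 9.19 on the siGNE arrays, against 10.22, 10.23 and 9.94 on the control arrays. Aurora A (AURKA), which acts at centrosomes and spindle poles, had 11.05, 11.59 and 10.76 on the siGNE arrays, against 12.02, 11.99 and 11.45 on the control arrays. The groups lay apart for PLK1 and AURKB, while for AURKA siGNE array 2 stood above control array 3. PLK1 fell by 1.03 (SE 0.16, limma adjusted p 0.0344) to 49.1% of control, AURKB by 0.82 (SE 0.10, limma adjusted p 0.0267) to 56.7% and AURKA by 0.69 (SE 0.13, limma adjusted p 0.0468) to 62.1%. The adjusted p of AURKB was the smallest of the set. Polo-like kinase 4 (PLK4), which starts centriole duplication, differed by -0.85 (SE 0.20, limma adjusted p 0.0636), the centrosomal kinase NEK2 by -0.53 and MELK by -0.52, none of which passed.

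**Figure D3:**
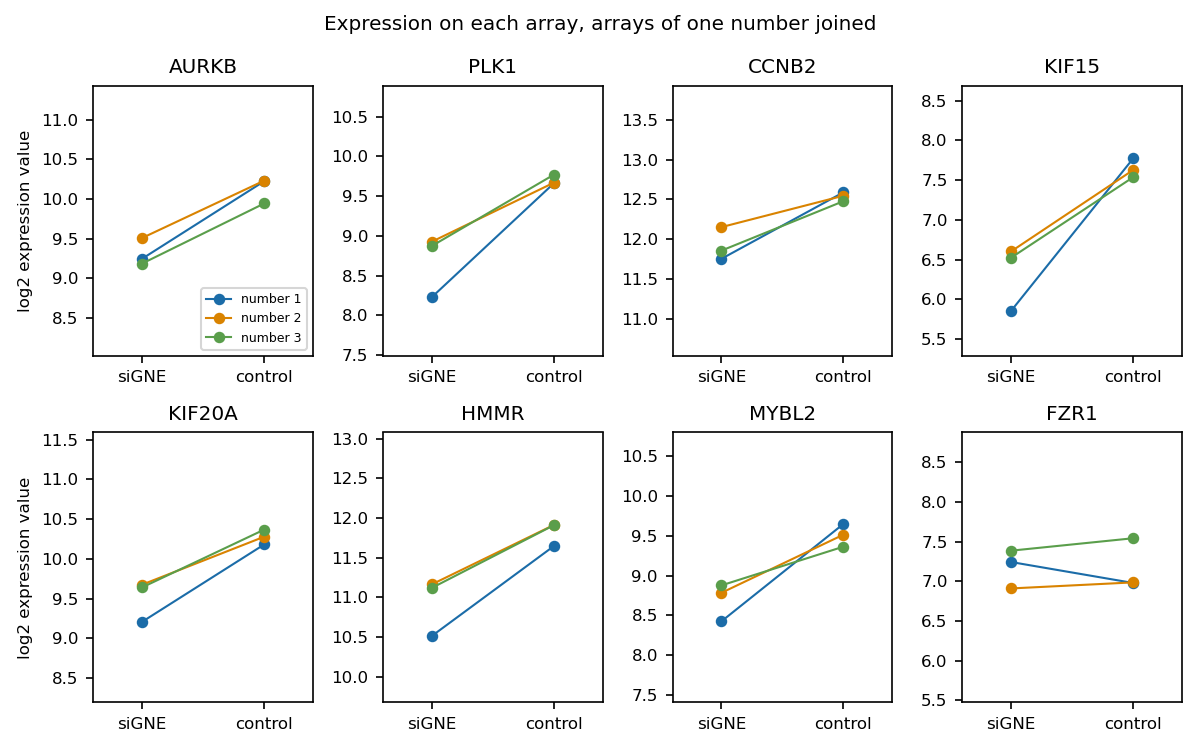
Log2 expression value of 8 genes on each of the 6 arrays, siGNE at the left and control at the right of each panel, with arrays of the same number joined, and each panel spanning the same log2 range. In AURKB, PLK1, CCNB2, KIF15, KIF20A, HMMR and MYBL2 all 3 siGNE points lie below all 3 control points, while in FZR1 they overlap.

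Of the partners of AURKB in the chromosomal passenger complex limma called 0 of 2 tested genes, and 2 were lower at an unadjusted p under 0.05. Survivin (BIRC5) had log2 values of 11.03, 11.45 and 11.56 on the siGNE arrays, against 11.88, 11.99 and 11.91 on the control arrays. Borealin (CDCA8) had 9.26, 9.69 and 9.68 on the siGNE arrays, against 10.09, 9.97 and 10.10 on the control arrays. Their groups did not overlap, and they differed by -0.58 (SE 0.12, limma adjusted p 0.0525) and -0.51 (SE 0.13, limma adjusted p 0.0774). The scaffold INCENP had values of 3.05, 3.45 and 3.55 on the siGNE arrays, against 3.83, 3.77 and 4.14 on the control arrays, close to background, and was not tested. Topoisomerase II alpha (TOP2A), which untangles sister chromatids, had 11.85, 12.42 and 12.47 on the siGNE arrays, against 13.06, 13.06 and 12.91 on the control arrays. The proliferation marker MKI67, a coat protein of mitotic chromosomes, had 8.64, 9.03 and 8.83 on the siGNE arrays, against 9.52, 9.25 and 9.12 on the control arrays. Both were lower on each siGNE array than on any control array and did not pass, at -0.77 (SE 0.17, limma adjusted p 0.0574) and -0.46 (SE 0.16, limma adjusted p 0.123). The probe sets of MKI67 disagreed in size. Its other 3 probe sets differed by -0.87, -1.35 and -1.68, with limma adjusted p of 0.0496, 0.041 and 0.0735, so that the first and the second of them fell.

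The kinesins of mitosis included KIF15 and KIF18A, the 2 largest falls of the set. All 12 of 12 were lower in all 3 pairs, 7 fell, and the median was -0.76, with a range from -1.32 to -0.35. KIF15, a motor that backs up KIF11 in keeping the spindle bipolar, had log2 values of 5.85, 6.60 and 6.52 on the siGNE arrays, against 7.77, 7.63 and 7.54 on the control arrays. It fell by 1.32 (SE 0.21, limma adjusted p 0.0355) to 40.0% of control, with a 95% interval of -1.86 to -0.78. KIF18A, which dampens chromosome movements at the metaphase plate, had 7.62, 7.99 and 7.38 on the siGNE arrays, against 9.15, 8.61 and 8.35 on the control arrays. It fell by 1.04 (SE 0.19, limma adjusted p 0.0422) to 48.6% of control. KIF20A, a motor of the central spindle in cytokinesis, had 9.21, 9.67 and 9.64 on the siGNE arrays, against 10.18, 10.28 and 10.37 on the control arrays. KIFC1, which pulls spindle poles together, had 8.06, 8.60 and 8.47 on the siGNE arrays, against 9.21, 9.19 and 9.13 on the control arrays. The microtubule depolymerase KIF2C had 9.89, 10.42 and 10.12 on the siGNE arrays, against 11.02, 11.03 and 10.73 on the control arrays. In these 5 genes the groups did not overlap, and siGNE array 1 was the lowest of all 6 arrays in 4 of them. KIFC1 fell by 0.80 (SE 0.14, limma adjusted p 0.0404), KIF2C by 0.79 (SE 0.14, limma adjusted p 0.0413) and KIF20A by 0.77 (SE 0.11, limma adjusted p 0.0302). A second tested probe set of KIF2C differed by -0.74 and did not pass (limma adjusted p 0.0591).

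KIF23, the kinesin of the centralspindlin complex, and the chromokinesin KIF4A fell by 0.66 (SE 0.13, limma adjusted p 0.0454) and 0.59 (SE 0.11, limma adjusted p 0.0466). KIF4A has a near-identical copy in the genome, so that its value may hold signal of both. The kinesins that did not pass were KIF11, the main motor that pushes spindle poles apart (-0.90, SE 0.19, limma adjusted p 0.0532), KIF18B (-0.75), KIF20B (-0.65), KIF14 (-0.64) and the chromokinesin KIF22 (-0.35). The size of the decrease varied within the family. The 95% interval of KIF22, -0.58 to -0.13, lay above that of KIF15, -1.86 to -0.78, without overlap, although the difference between the genes was not tested.

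A further list of kinesins and their adaptors gave other values. It is named for transport in interphase but is not limited to it, since it also holds KIF2A. Of the 28 genes of the list 18 were tested, 6 were lower and 1 was lower in all 3 pairs, with a median of 0.10. Limma called 0 of them with or without the block, and with the block 1 was lower and 4 were higher at an unadjusted p under 0.05. The gene lower in all 3 pairs was KIFAP3, the adaptor of kinesin-2, at -0.63 (SE 0.18, limma adjusted p 0.0928). KIF2A, a microtubule depolymerase that also works at spindle poles, was higher on every siGNE array, with 10.47, 10.44 and 10.28 on the siGNE arrays, against 10.14, 10.01 and 9.99 on the control arrays, and did not pass (0.35, SE 0.09, limma adjusted p 0.0683). KLC1, a kinesin-1 light chain, stood at 0.31 (SE 0.09, limma adjusted p 0.0891). The 10 genes not tested had means at or below 4.

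**Figure D4:**
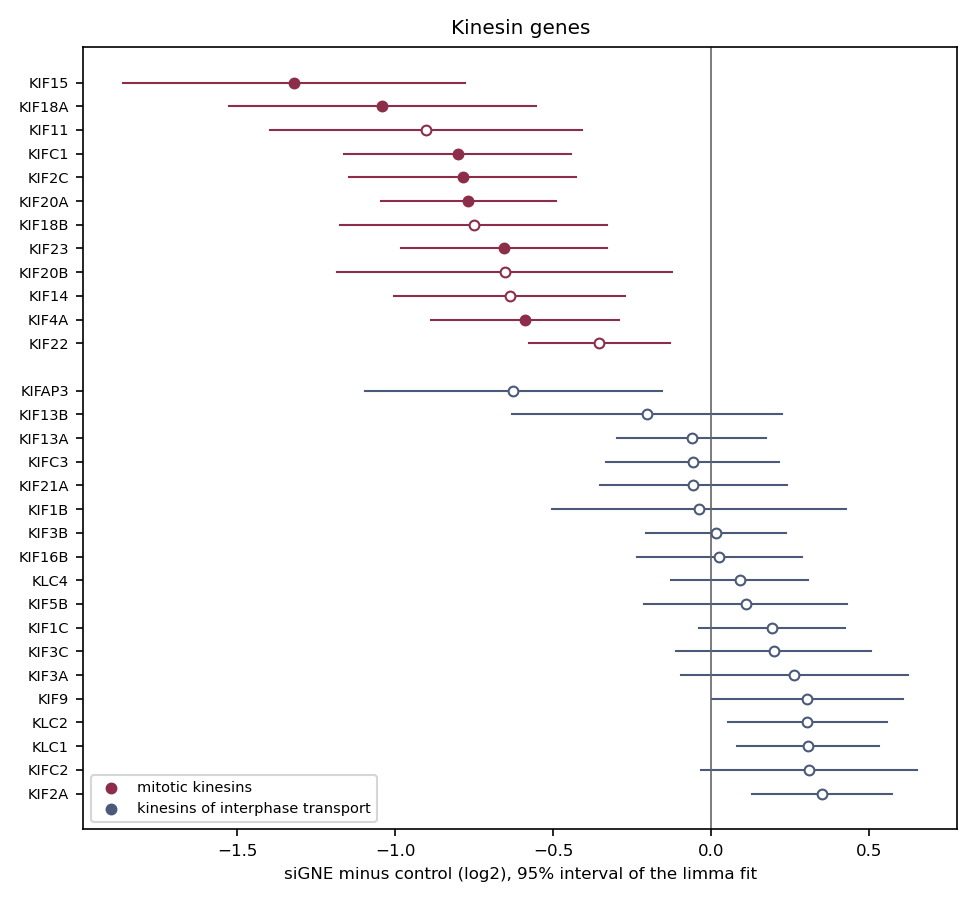
Log2 difference siGNE minus control with its 95% interval from the limma fit with the block, where filled points passed and open points did not. Red marks the 12 mitotic kinesins of the set. Blue marks the 18 tested genes listed as kinesins of interphase transport with their adaptors, a list that also holds KIF2A. The mitotic kinesins lie between -1.32 and -0.35 and the others between -0.63 and 0.35.

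Microtubule-binding proteins of the spindle were all lower, 6 of 6 in all 3 pairs, with 3 falling and a median of -0.63. HMMR, which binds spindle poles, had log2 values of 10.51, 11.16 and 11.12 on the siGNE arrays, against 11.65, 11.91 and 11.91 on the control arrays. TPX2, which activates Aurora A and nucleates microtubules, had 11.40, 11.47 and 11.71 on the siGNE arrays, against 12.06, 12.13 and 12.06 on the control arrays. DLGAP5, which stabilises spindle fibres, had 11.30, 11.86 and 11.59 on the siGNE arrays, against 12.36, 12.33 and 12.18 on the control arrays. No siGNE value of these genes reached a control value. HMMR fell by 0.89 (SE 0.11, limma adjusted p 0.0281) to 53.9% of control, DLGAP5 by 0.71 (SE 0.14, limma adjusted p 0.0478) and TPX2 by 0.55 (SE 0.10, limma adjusted p 0.0444). A second probe set of HMMR fell by 1.11 (limma adjusted p 0.038). ASPM, a spindle pole protein, at -0.85 (SE 0.21, limma adjusted p 0.0706), NUSAP1 at -0.50, and PRC1, which bundles the microtubules of the midzone, at -0.47, did not pass.

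Around the APC/C, 6 of 7 genes were lower in all 3 pairs, 1 fell, and the median was -0.53. Securin (PTTG1), which blocks separase until anaphase, had log2 values of 11.95, 12.39 and 12.00 on the siGNE arrays, against 12.61, 12.84 and 12.48 on the control arrays. It fell by 0.53 (SE 0.09, limma adjusted p 0.0406), and the groups did not overlap. It was measured by a probe set prone to cross-hybridisation, and the gene has near-identical copies, so that its value is uncertain. The APC/C inhibitor FBXO5 (EMI1) had 8.76, 9.16 and 8.90 on the siGNE arrays, against 9.88, 9.71 and 9.34 on the control arrays. Separase (ESPL1), which cuts cohesin, had 6.74, 7.52 and 7.01 on the siGNE arrays, against 7.85, 7.88 and 7.63 on the control arrays. In both genes the groups lay apart, and the differences, which did not pass, were -0.70 (SE 0.16, limma adjusted p 0.0585) and -0.70 (SE 0.16, limma adjusted p 0.0620). A second probe set of each fell, by 0.92 for FBXO5 and 0.89 for ESPL1 (limma adjusted p 0.0373 and 0.0367), that of FBXO5 being prone to cross-hybridisation. The mitotic activator CDC20 (-0.53, SE 0.14, limma adjusted p 0.0776) and the ubiquitin-conjugating enzymes UBE2C (-0.75) and UBE2S (-0.43) did not pass.

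FZR1 (CDH1), which activates the APC/C in late mitosis and G1, did not follow the set, with log2 values of 7.24, 6.91 and 7.39 on the siGNE arrays, against 6.98, 6.99 and 7.54 on the control arrays. The groups overlapped, and the difference was 0.01 (SE 0.12, limma adjusted p 0.963), with a 95% interval of -0.29 to 0.31. By pair it was 0.26, -0.08 and -0.16 in pairs 1, 2 and 3, and its other 3 probe sets differed by -0.11, 0.02 and 0.21. The core subunits of the APC/C, a further list, had a median of -0.12 over 13 tested genes, with 8 lower, 6 lower in all 3 pairs, and 0 called by limma with or without the block. At an unadjusted p under 0.05 with the block 2 were lower and 0 higher. Of them, CDC26, ANAPC15 and ANAPC13 had the smallest unadjusted p and differed by -0.49, -0.31 and 0.23.

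The cytokinesis genes had the smallest median difference of the role groups, -0.34, and limma called 0 of 3, with 2 lower at an unadjusted p under 0.05. RACGAP1, the GTPase-activating partner of KIF23, had log2 values of 10.48, 10.92 and 10.71 on the siGNE arrays, against 11.31, 11.19 and 10.99 on the control arrays. The scaffold anillin (ANLN), which organises the contractile ring, had 11.08, 11.11 and 11.13 on the siGNE arrays, against 11.66, 11.38 and 11.29 on the control arrays. The exchange factor ECT2, which activates RHOA at the division site, had 11.54, 11.78 and 11.76 on the siGNE arrays, against 12.03, 11.96 and 11.83 on the control arrays. Each siGNE value lay below each control value, and the differences were -0.46 (SE 0.14, limma adjusted p 0.108), -0.34 (SE 0.11, limma adjusted p 0.124) and -0.24 (SE 0.11, limma adjusted p 0.221). Other tested probe sets differed by -0.56 for ANLN and by -0.50 and -0.24 for ECT2, and none passed. The size of the group's median thus depends on the probe sets used. Other cytokinesis and abscission proteins had a median of 0.06 over 15 tested genes, of which 7 were lower and 5 lower in all 3 pairs, and limma called 0 with or without the block. The differences of this list ran from -0.64 to 0.35. At an unadjusted p under 0.05 with the block 4 were lower and 4 higher. VPS4A and VPS4B, the ATPases that take ESCRT filaments apart at abscission, were at 0.34 and 0.35 (limma adjusted p 0.0827 and 0.0976). ARF6, a small GTPase of membrane traffic, was at -0.33 (limma adjusted p 0.103), and none of these passed.

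Both transcription factors of the set were lower. MYBL2 (B-MYB), which joins the MuvB complex to switch on late cell cycle genes, had log2 values of 8.42, 8.78 and 8.88 on the siGNE arrays, against 9.65, 9.52 and 9.36 on the control arrays. FOXM1, which acts with it on the same promoters, had 7.76, 8.73 and 8.47 on the siGNE arrays, against 9.05, 9.14 and 9.00 on the control arrays. Neither gene had a siGNE value at or above a control value. MYBL2 fell by 0.82 (SE 0.16, limma adjusted p 0.0476) to 56.8% of control, and FOXM1, measured by a probe set prone to cross-hybridisation, differed by -0.75 (SE 0.20, limma adjusted p 0.0765) and did not pass. The MuvB and DREAM complex, which binds the CHR, gave a mixed picture, with a median of -0.08 over 11 tested genes of 12, 0 falling (2 lower at an unadjusted p under 0.05) and 1 rising. LIN37, a MuvB subunit, rose by 0.53 (limma adjusted p 0.0470 with the block and 0.659 without), with 8.81, 8.52 and 7.51 on the siGNE arrays, against 8.08, 8.10 and 7.08 on the control arrays. These values overlapped between the groups and were higher in siGNE within each pair. TFDP1, the partner of E2F factors, was at -0.60 (SE 0.12, limma adjusted p 0.0517) and the pocket protein RBL1 (p107) at -1.29 (SE 0.33, limma adjusted p 0.0732), and they did not pass.

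Further genes of mitosis were lower in part, from lists that do not overlap the set but were also chosen with earlier results known. Of 8 condensin subunits, which compact chromosomes, all 8 were lower in all 3 pairs and 3 fell (median -0.54). These were NCAPH, by 1.06 (SE 0.16, limma adjusted p 0.0340), NCAPD2, by 0.61 (SE 0.09, limma adjusted p 0.0317), and NCAPG2, by 0.47 (SE 0.09, limma adjusted p 0.0456). Of 28 other spindle and centrosome genes, 25 were lower, 7 fell and 0 rose (median -0.46), among them the centriole duplication scaffold CEP152, by 1.23 (SE 0.22, limma adjusted p 0.0422), and FAM83D, which recruits casein kinase 1 to the spindle, by 0.96 (SE 0.17, limma adjusted p 0.0410). TROAP, a protein that binds microtubules, fell by 0.61 (SE 0.11, limma adjusted p 0.0418). The others, named after their values were seen, were CKAP2, CKAP2L, HAUS1 and TUBG1, which fell by 0.48 to 0.64. Of 19 other regulators of mitotic entry and exit, 13 were lower and 4 fell (median -0.17). MASTL (Greatwall), the kinase that blocks PP2A in mitosis, fell by 1.06 (SE 0.20, limma adjusted p 0.0449), cyclin F (CCNF) by 0.81 (SE 0.10, limma adjusted p 0.0281), and the CDK subunit CKS2 by 0.53 (SE 0.09, limma adjusted p 0.0373). BORA, which helps Aurora A to activate PLK1 and is named here after its value was seen, fell by 0.62 (SE 0.12, limma adjusted p 0.0450). Limma without the block called 0 genes of these 3 lists, where 30 were lower at an unadjusted p under 0.05.

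Other probe sets of the same genes gave a second reading. Of the 49 genes, 26 had 42 further probe sets, of which 31 passed the filter. Among these 29 were lower and 2 higher, 13 fell, 0 rose, and the median was -0.67, so that 8 genes had another probe set that fell where the one used did not pass. Besides those given above, second probe sets fell for CCNA2 by 0.83, AURKA by 0.67, PLK4 by 0.83 and ASPM by 0.49 (limma adjusted p 0.0427, 0.0422, 0.0495 and 0.0439). KIF2C was the only gene that fell whose other tested probe set did not pass. The 2 that were higher both belonged to FZR1. Probe sets of a gene share its RNA and its arrays and are not independent of each other.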

How the data were processed

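Gene expression was measured on 6 Affymetrix arrays from Capan-1 cells, 3 siGNE and 3 control, from 300 ng of total RNA each. The deposited values are log2 expression values of 54675 probe sets, made with GCRMA per the submitters' processing notes, which models background from probe sequence. No source used here names its version or the chip definition. Arrays have no read depth, and their number limits the precision.

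Gene names came from GEO's platform annotation, updated through a RefSeq gene table. Control probe sets were left out, as were those with a mean over the 6 arrays of 4 or less, which left 22085 probe sets. These were fitted together in limma 3.58.1 (R 4.3.3, lmFit and eBayes) with the array number as a block, which left 2 residual degrees of freedom. P-values were adjusted by Benjamini-Hochberg over all 22085, with calls at an adjusted p under 0.05. The fit without the block was the main alternative. The block was used because the study's arrays share numbers in their titles and deviations from the group means correlated at 0.58, 0.71 and 0.83 between arrays of the same number, against -0.64 to 0.17 between others. A correlation over 0.1 in every pair was required. Arrays of numbers 1 and 2 also exceeded it across pairs, at 0.14 and 0.17, so this limit alone does not single out the pairs.

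The genes and lists were chosen with earlier results of these data known. Values on every array are given for up to 3 genes of each role (5 for the kinesins) and up to 3 genes of each further list are named, by smallest unadjusted p, and FZR1 is also given on every array as the gene that ran against its role group. The listed genes ANAPC1, HAUS4, CIT, PDCD6IP and BRCA2 were not analysed here. The fit was tested on simulated data.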

Additional observations from a re-analysis of the deposited data

How the results depend on the processing

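The direction of the gene set held under every alternative run, while its calls did not. The median difference lay between -0.75 and -0.47 when 1 pair was left out and was -0.57 with array weights, and 47 or 48 of the 48 tested genes were lower in each fit that kept the filter. Of the genes of the set, 18 fell with the replicate block, and without replicate 1, 2 or 3 in turn the count ranged from 0 to 0, as did the counts of probe sets that fell (1182 with all arrays) or rose (913) and of further listed genes that fell (14) or rose (1). In those 3 fits, with 1 residual degree of freedom each, 41 to 43 of the 48 genes were lower at an unadjusted p under 0.05. Of all 22085 tested probe sets, 5022 to 5529 had such a p there, in either direction. With no replicate block, 0 genes of the set, 0 probe sets lower, 9 probe sets higher, 0 further genes lower and 0 higher were called, and GNE stood at -1.88 (limma adjusted p 0.131). With no filter on low values, which raised the number of probe sets tested to 54613, all these counts were 0, 36 genes of the set were lower at an unadjusted p under 0.05, and GNE stood at -1.88 (limma adjusted p 0.265). Of the 54613 probe sets, 7167 had such an unadjusted p, in either direction. Restricting the test to means above 6 gave 38 genes of the set lower, 1944 probe sets lower and 1374 higher, and 29 further genes lower and 3 higher. A trended variance gave 36 genes of the set lower, 1373 probe sets higher, and 28 further genes lower and 5 higher. A robust variance gave 14 genes of the set lower and 0 further genes higher. An adjusted p under 0.1 gave 40 genes of the set lower, 2755 probe sets lower and 2068 higher, and 36 further genes lower and 6 higher. The mean of all probe sets of a gene gave 29 genes of the set lower, and 22 further genes lower and 2 higher. Quantile normalization and median centring gave 27 genes of the set lower each. All 18 genes were again called at means above 6, under the trended variance, quantile normalization, median centring, array weights and probe set means, and 14 of them under the robust variance. Leaving out 1 pair put GNE at -2.17 to -1.45, and leaving out 1 array at a time without the block, an alternative chosen after the data were seen, put it at -1.44, -2.17 and -2.03 without siGNE array 1, 2 or 3 and at -1.89, -1.72 and -2.02 without control array 1, 2 or 3, with counts of 0 in every class. In those 6 fits 26 to 41 of the 48 genes were lower at an unadjusted p under 0.05, where 2023 to 3508 of 22085 probe sets had such a p in either direction. FZR1, at 0.01 with all arrays, was at -0.033 with array weights and ranged from -0.12 (without replicate 1) to 0.094 when 1 pair was left out. The cause of these changes was not tested. Values near 3 on the log2 scale are close to background, and INCENP was left out by the filter on low values and tested only in the fit with no filter.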
